A study of Mus musculus with 123 samples.

Results

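Glutamate receptor subunits were followed in mouse dorsal root ganglion (DRG) neurons after sciatic nerve transection (SNT). The 10 genes were chosen by symbol from the 24134 genes of the tables: the AMPA receptor subunits Gria1, Gria2, Gria3 and Gria4, the kainate receptor subunits Grik1, Grik2 and Grik5, the NMDA receptor subunits Grin1 and Grin2b, and the metabotropic receptor Grm7. All 10 were found. In 2-month-old mice the right sciatic nerve was cut at the thigh, and neurons of the uninjured opposite side served as control. At day 3 the animals were F1 offspring of a CAST/Eij male and a C57BL/6 female, and cells came from the L5 ganglion. The paper gives these F1 mice as female. At day 7 they were C57BL/6 mice of both sexes, and cells came from the L3 to L5 ganglia. Somata were picked by hand after dissociation, so that soma size and survival through dissociation limit which neurons are represented. After removal of outliers by the authors there were 18 control and 41 SNT cells at day 3, and 14 control and 33 SNT cells at day 7. A pool of day 3 neurons from each side was also lysed and split into 3 libraries. Because strain, ganglia, sexes and sequencing differed between the days, day 3 and day 7 were not compared with each other.

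Glutamate is the main fast transmitter that DRG neurons release onto the spinal cord, and the same neurons carry glutamate receptors on their own terminals and somata. AMPA receptors are tetramers that open fast cation channels, and the GluA2 subunit encoded by Gria2, after editing of its RNA, makes the channel nearly impermeable to calcium. Kainate receptors built with GluK1, the product of Grik1, are a known property of small nociceptors. NMDA receptors need the obligatory GluN1 subunit, encoded by Grin1, and Grm7 encodes a presynaptic G protein-coupled receptor that restrains release.

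A promoter was at hand in the RefSeq table of mouse build GRCm38.p6 for 6 of the 10 genes: Gria2, Gria4, Grik2, Grik5, Grin1 and Grm7. Those of Gria1, Gria3, Grik1 and Grin2b were not used here. The 250 bases upstream of the start are shown for Gria2 and Grin1, the genes with a promoter at hand whose pooled transcript level passed the adjusted p limit. Gria2 is at chr3:80802836-80803085 and Grin1 at chr2:25319188-25319437, both on the minus strand, written 5′ to 3′ along the gene, with motif matches in capitals.
Gria2: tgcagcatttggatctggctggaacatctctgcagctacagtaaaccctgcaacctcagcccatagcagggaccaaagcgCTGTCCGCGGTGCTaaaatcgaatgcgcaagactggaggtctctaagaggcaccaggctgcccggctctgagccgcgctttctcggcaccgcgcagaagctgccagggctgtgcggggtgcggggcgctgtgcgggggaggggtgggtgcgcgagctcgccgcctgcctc
Grin1: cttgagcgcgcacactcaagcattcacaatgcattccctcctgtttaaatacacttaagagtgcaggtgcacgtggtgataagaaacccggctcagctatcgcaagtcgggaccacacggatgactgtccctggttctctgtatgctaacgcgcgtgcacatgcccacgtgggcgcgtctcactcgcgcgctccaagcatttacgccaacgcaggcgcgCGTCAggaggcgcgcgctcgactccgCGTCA

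The letters searched on both strands were TGACGTCA (the CRE), TGACG (the CRE core, also contained in the CRE), TGANTCA (the AP-1 site), GGGCGG (the GC box) and, for RE1, the element bound by the repressor REST, AGCACC followed after 2 bases by GGACAG. The RE1 letters were added after the Gria2 sequence had been seen. The Gria2 window held 1 RE1 match and none of the other letters. Among 32851 promoters of the same length, 15 held the RE1 letters, or 0.0457%. The Grin1 window held 2 CRE cores on the opposite strand, and 17.8% of all promoters held at least 1. The full CRE was in 1.55% of promoters, the AP-1 site in 6.75% and the GC box in 32.7%. Among the other members at hand, Grik5 held 2 GC boxes, Grm7 held 1, and Gria4 and Grik2 held no match. A match only describes these letters, and binding was not measured.

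The pooled libraries asked which subunits differed between the sides at day 3 when the spread between technical parts was known. Levels are CPM, a gene's counts per 1000000 counts of its library. Differences are log2 changes of the SNT over the control side from edgeR's quasi-likelihood test, with the standard error (SE) and a p adjusted over all 13509 genes tested (Benjamini-Hochberg). A call needed an adjusted p under 0.05 together with a log2 change of more than 1 in size. Of the 9 members tested, 2 were called lower, Grik1 and Gria2, beside 7.1% of all genes called lower. None of the 9 was called higher by edgeR, DESeq2 or limma, beside 8.85% of all genes called higher by edgeR, and 0 of the 9 had an unadjusted p below 0.05 with a positive change. The median log2 change was -0.70 over the 9 members and 0.02 over all genes tested. Grin2b, below a mean of 1 CPM, was not tested.

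The 3 libraries of a side are parts of 1 pool, so the p-values measure technical spread and not the spread between animals. In bulk RNA, fewer cells of a type and less RNA per cell cannot be told apart. The sides were taken from the column names. A second identifier line in the deposited table pairs all 6 pooled columns with the opposite side, and under it every pooled difference given here would change sign. By the column names, the injury genes Atf3, Sprr1a and Gal were higher on the SNT side, with Atf3 at 1466 ± 133 CPM against 13.4 ± 7.03 CPM (SD, n = 3). By the identifier line they would be lower there. In the day 3 single cells, whose sides come from their own titles, 30 of 41 SNT cells had Atf3 above every control cell.

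Grik1 had the widest gap of the members. It stood at 580, 474 and 524 CPM in control libraries 1 to 3 and at 22.7, 20.02 and 18.0 CPM in SNT libraries 1 to 3. Every SNT library lay far below every control library. The log2 change was -4.54 (SE 0.18, edgeR adjusted p = 2.8e-22), a 23.2-fold lower level. Non-overlap in this direction was seen in 4 of 9 members and in 21.3% of all genes tested. The summed level of the non-peptidergic nociceptor markers Mrgprd, P2rx3 and Scn11a moved with it, from 2348 to 2375 CPM in the control libraries to 433 to 441 CPM in the SNT libraries. The 3 C-LTMR markers (Th, Slc17a8 and Fam19a4, genes of unmyelinated touch neurons) summed to 389 to 533 CPM in control and 65.8 to 121 CPM in SNT libraries. The part of these shifts in the Grik1 difference was not tested.

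Gria2 was the other called member. Its level was 30.3, 36.9 and 49.7 CPM in the control libraries and 8.37, 6.96 and 3.49 CPM in the SNT libraries. The sides did not overlap. The log2 change was -2.48 (SE 0.41, edgeR adjusted p = 1.0e-05), or 5.58-fold lower, from 22 to 31 reads a control library and 7 to 14 reads an SNT library. The 3 large myelinated markers Nefh, Pvalb and Ntrk3 went the other way, from 326 to 374 CPM to 662 to 764 CPM. Markers of glia, which surround each soma, summed to 12636 to 15313 CPM over 10 genes in control and 6156 to 6951 CPM in SNT libraries, with none of the 10 at 0 on either side. The 6 general neuron markers summed to 8112 to 9480 CPM in control and 13929 to 15726 CPM in SNT libraries, but they did not move together. By means of the control and then the SNT libraries, Tubb3 (3102 and 9157 CPM) and Uchl1 (1729 and 2410 CPM) were higher on the SNT side. Snap25 (1747 and 1143 CPM), Prph (1104 and 1050 CPM), Isl1 (160 and 105 CPM) and Avil (927 and 663 CPM) were lower. Immune markers reached at most 9.48 CPM in sum, with 5 of 8 at 0 in all control libraries. The part of these markers in any member's difference was not tested.

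Grin1 passed the adjusted p limit but not the size limit. Its levels were 100, 86.6 and 81.6 CPM in control and 56.2, 47 and 44.9 CPM in SNT libraries, with no overlap. The log2 change was -0.70 (SE 0.22, edgeR adjusted p = 0.015), and 10.8% of all genes passed this p limit in the same direction. Leaving out 1 library ended the pass in 3 of 6 cases, with an edgeR adjusted p of 0.063 without control library 1, 0.066 without SNT library 2 and 0.076 without SNT library 3. The antisense gene Grin1os overlaps Grin1, and the library protocol does not keep strand, so that reads from the pair cannot be told apart where they overlap. Grin1os itself was listed at 0 in 4 of the 6 libraries and at most at 1.61 CPM.

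Gria4, the most abundant AMPA subunit per length, did not pass the test. It measured 79.8, 87.0 and 108 CPM in control and 60.3, 64.4 and 60.9 CPM in SNT libraries. The SNT libraries lay below the control libraries, with a log2 change of -0.40 (95% interval -0.82 to 0.02, edgeR adjusted p = 0.18). Gria3 stood at 30.3, 8.34 and 31.9 CPM in control and 14.9, 4.35 and 6.99 CPM in SNT libraries, and the sides overlapped because of control library 2. Its log2 change of -1.18 (edgeR adjusted p = 0.071) was not called, but without control library 2 it was -1.62 (adjusted p = 0.0068) and without SNT library 1 it was -1.76 (adjusted p = 0.028), both past the limits. Gria1 rested on 3 to 31 reads a library, with 5.93 ± 2.17 CPM in control and 10.96 ± 4.00 CPM in SNT libraries (SD, n = 3) and overlapping sides.

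Of the remaining kainate members, Grik2 had 16.5, 13.1 and 39.04 CPM in control and 13.7, 6.09 and 12.5 CPM in SNT libraries, with overlap. Its log2 change was -0.82 (95% interval -1.70 to 0.06, edgeR adjusted p = 0.19). It was -1.12 without control library 2 and -0.25 without control library 3, and not called in either case. Grik5, which encodes a high-affinity kainate subunit that works only with partners, had 7 reads in control library 1 and 0 in the other two, against 5, 4 and 3 reads in the SNT libraries. Its difference could not be resolved (95% interval of the log2 change -2.24 to 1.88). Grm7 was among the steadiest, at 61.9, 97.7 and 87.0 CPM in control and 89.7, 67.9 and 73.4 CPM in SNT libraries, with an interval from -0.36 to 0.49. Grin2b had 0 of 2129809 control reads, which allows up to 1.41 CPM, and 0.34 CPM in SNT library 3 alone.

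**Figure D1:**
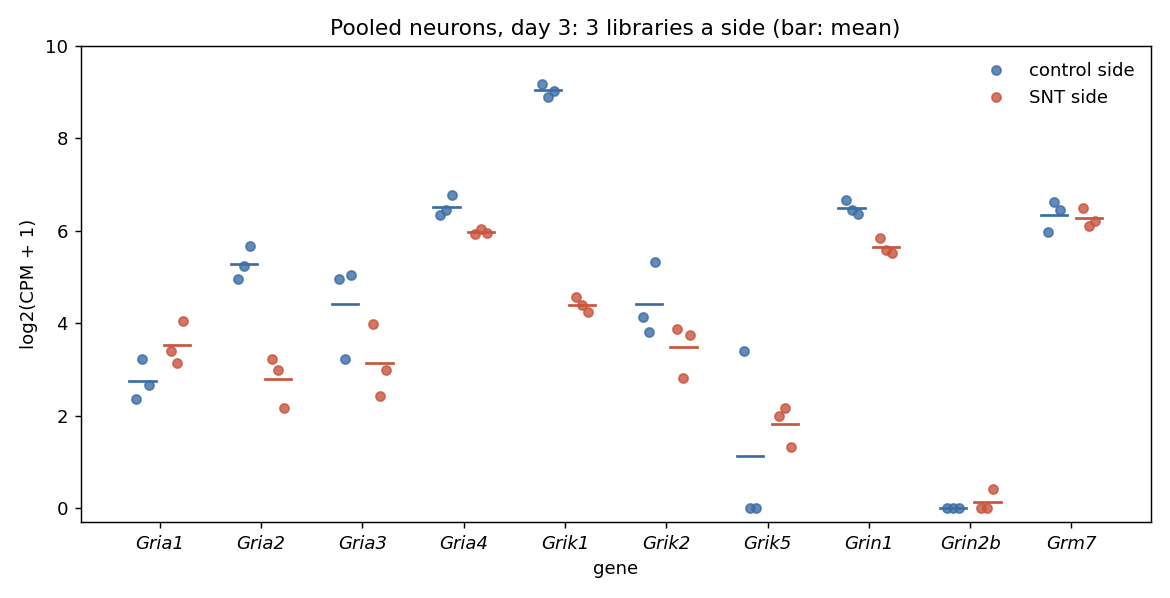
Level of each member in the pooled day 3 libraries, as log2(CPM + 1) on the vertical axis. Points are 3 libraries a side and bars their means on this scale. The Grik1 and Gria2 libraries of the SNT side sit well below those of the control side, Grin1 and Gria4 libraries sit below by less, and the other members overlap or are near 0.

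Divided by transcript length, the control pool was led by Grik1 at 147 ± 14.7 CPM per kb. Grin1 (22.6 ± 2.42), Gria4 (20.9 ± 3.385) and Grm7 (19.6 ± 4.38 CPM per kb) followed and did not differ from each other beyond their SDs over 3 libraries. Gria3, Gria2 and Grik2 formed a lower level at 5.98 ± 3.351, 5.41 ± 1.37 and 3.66 ± 2.25 CPM per kb, again within their spread. Gria1 was at 1.09 ± 0.40 and Grik5 at 0.87 ± 1.51 CPM per kb. In the SNT pool the order per length was Grm7 (18.3 ± 2.70), Gria4 (14.1 ± 0.50), Grin1 (12.5 ± 1.52) and Grik1 (5.65 ± 0.67 CPM per kb). The first neighbours, Grm7 and Gria4, lay apart by more than either SD, Gria4 and Grin1 by about the SD of Grin1, and Grik1 well below all of them.

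In the pooled libraries the sides were apart in the share of Gria2 among the AMPA subunits. Per length, Gria2 made up 16.2 ± 2.25% of the summed AMPA subunit level in the control libraries and 4.51 ± 1.70% in the SNT libraries (SD, n = 3), without overlap. In the single neurons of day 3 the reading depended on the average used. By means over cells Gria2 made up 13.5% in control and 14.01% in SNT cells, but 1 SNT cell held 20.7% of the Gria2 sum of its side. By medians over control and then SNT cells, Gria2 was at 4.62 and 1.54 CPM per kb. The medians of Gria4 were 14.9 and 10.9, those of Gria3 1.16 and 1.14, and those of Gria1 0 and 0 CPM per kb. In the pooled libraries Gria4 made up 63.0 ± 5.54% and 73.7 ± 6.77%, with overlapping libraries. Grik1 made up 97.1 ± 1.28% of the 3 kainate members in control and 70.0 ± 3.87% in SNT libraries, and Grik2 made up 2.41 ± 1.46% and 21.1 ± 7.256% while its own level was not called. The kainate subunit genes Grik3 and Grik4 are not members and are left out of this share. Grik4 stood at 58.2 ± 9.46 CPM in control and 31.7 ± 7.62 CPM in SNT libraries. In the SNT libraries it was above Grik1 (20.2 ± 2.38 CPM), so the share does not describe all kainate subunits. These shares were not tested, since 3 libraries against 3 cannot reach an exact permutation p below 0.10.

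**Figure D2:**
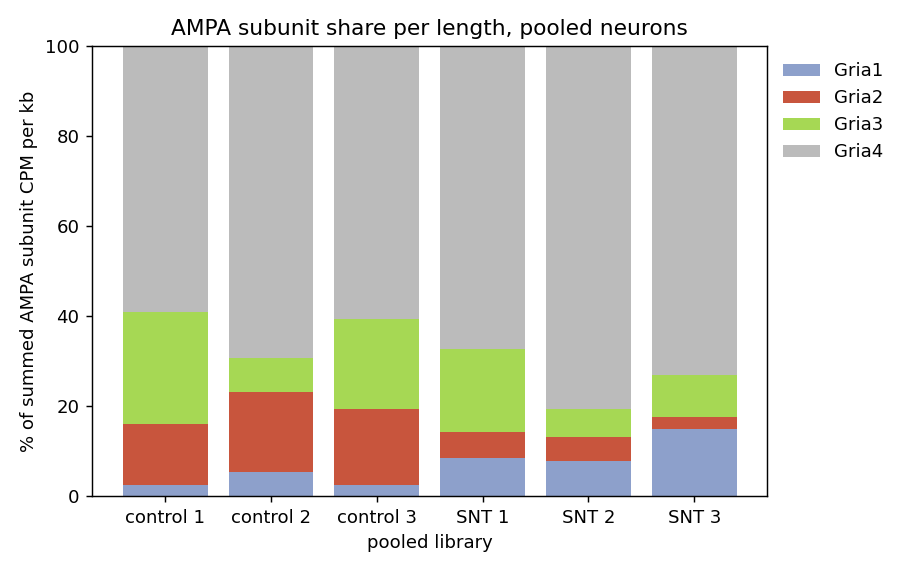
Share of each AMPA subunit in the summed CPM per kb of Gria1 to Gria4, in percent, for the 6 pooled libraries. The Gria2 segment spans 13.6 to 17.9% in the control libraries and 2.55 to 5.67% in the SNT libraries, and Gria4 is the largest segment in all 6.

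The single neurons asked in which cells the subunits were carried. The labels tie no cell to an animal, and therefore the cells of a side and day count as 1 sample and no test was made. Ratios are log2 of mean CPM + 1 on the SNT side over the control side, which understates changes of low genes, and SDs are over cells. Single-cell totals ran from 277390 to 1849130 counts at day 3 and from 261351 to 1018545 at day 7 in kept cells. The 6 neuron markers were present in both days' cells, summing to 8539 to 17911 CPM at day 3 and 5923 to 16171 CPM at day 7. Glial markers had medians of 3770 CPM in control and 3813 CPM in SNT cells at day 3, and of 5221 and 1499 CPM at day 7, and their part in the results was not tested. At day 3, 2 of the 9 members above a mean of 1 CPM were lower beyond 2-fold, Grik1 and Gria4, beside 6.35% of all 13644 genes, and 0 were higher beyond 2-fold, beside 6.78%. The median ratio was -0.76 over the 9 members and -0.05 over all genes.

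Grik1 divided the control neurons of day 3. Its level ran from 0 to 1025 CPM with a median of 112 CPM, and 9 of 18 cells were above 100 CPM. The 6 highest cells, at 725 to 1025 CPM, were also the 6 with Mrgprd above 1000 CPM, the receptor of one class of non-peptidergic nociceptors. The next pair, at 684 and 560 CPM, were the only cells with Th above 1000 CPM. All 4 control cells with Nefh above 1000 CPM, the heavy neurofilament of large neurons, had at most 88.9 CPM of Grik1. Across the 18 cells Grik1 followed P2rx3 with a Spearman rho of 0.83, Scn11a with 0.80 and Mrgprd with 0.78, and ran against Nefh at -0.69. The other large myelinated markers were weaker, with -0.24 for Pvalb and -0.18 for Ntrk3. Among the C-LTMR markers rho was 0.67 for Fam19a4, 0.05 for Th and -0.10 for Slc17a8. These are descriptions across cells of 1 sample, which share depth and amplification.

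Gria4 ran opposite to Grik1 in the same neurons. In the 9 control cells with Grik1 above 100 CPM, Gria4 was at 9.50 to 66.7 CPM, and in the other 9 it was at 63.9 to 310 CPM. At day 3, Spearman's rho between the pair was -0.89 over 18 control cells and -0.01 over 41 SNT cells. Over the 14 control cells of day 7 rho was -0.75, but 9 of these cells were tied at 0 for Grik1. Only 1 of the 14 was above 20.7 CPM of Grik1. Gria4 led the AMPA subunits per length in 14 of 18 control and 34 of 41 SNT cells at day 3, and in 13 of 14 control and 33 of 33 SNT cells at day 7.

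**Figure D3:**
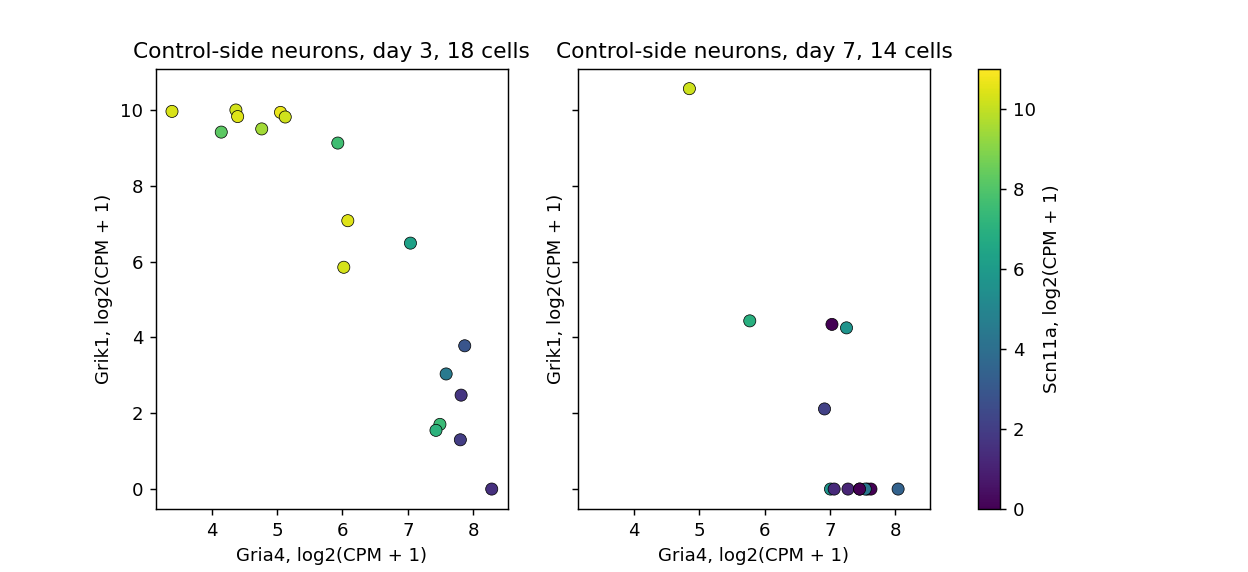
Grik1 (vertical) against Gria4 (horizontal) in single control-side neurons, both as log2(CPM + 1), coloured by Scn11a, a sodium channel gene of nociceptors. At day 3 the cells with Grik1 above 100 CPM lie at the left with Gria4 of at most 66.7 CPM, and at day 7 a single cell at 1515 CPM of Grik1 lies there.

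In the 41 SNT cells of day 3, Grik1 ran from 0 to 1000 CPM with a median of 9.75 CPM, and 6 cells were above 100 CPM. The means were 394 ± 433 CPM in control and 93.2 ± 240 CPM in SNT cells, a log2 ratio of -2.07, which was -3.39 with medians and -2.32 without the highest cell of each side. Summed over cells, Grik1 took 450 CPM on the control side (exact Poisson 95% interval 439 to 460) and 64.5 CPM on the SNT side (62.4 to 66.8), intervals that cover counting error only. The sides overlapped, since 3 SNT cells at 876 to 1000 CPM lay within the range of the 6 highest control cells. With the 11 cells that the authors had removed as outliers, the day 3 ratio of Grik1 was -2.02, that of Gria4 -0.85, that of Grin1 -0.66 and that of Gria2 -0.64.

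Those Grik1-rich SNT cells were cells with little Atf3, a transcription factor induced by axotomy. Of the 41 SNT cells, 30 had Atf3 above the highest control cell (75.7 CPM) and 11 did not. All 6 SNT cells with Grik1 above 100 CPM were among the 11, and the highest Grik1 level among the 30 was 86.4 CPM. P2rx3 above 1000 CPM was found in 7 control cells, all 7 with Grik1 above 100 CPM, and in 17 SNT cells, of which 3 had Grik1 above 100 CPM. Among these 17 cells, 13 had Atf3 above the highest control cell. Mrgprd and Scn11a did not part the sides in this way. Mrgprd above 1000 CPM was found in 6 control and 3 SNT cells, all with Grik1 above 100 CPM. Scn11a above 100 CPM was found in 12 control cells, 9 of them with Grik1 above 100 CPM, and in 9 SNT cells, 6 of them. Of these Mrgprd and Scn11a SNT cells, 0 had Atf3 above the highest control cell. These are counts of cells, with no test.

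**Figure D4:**
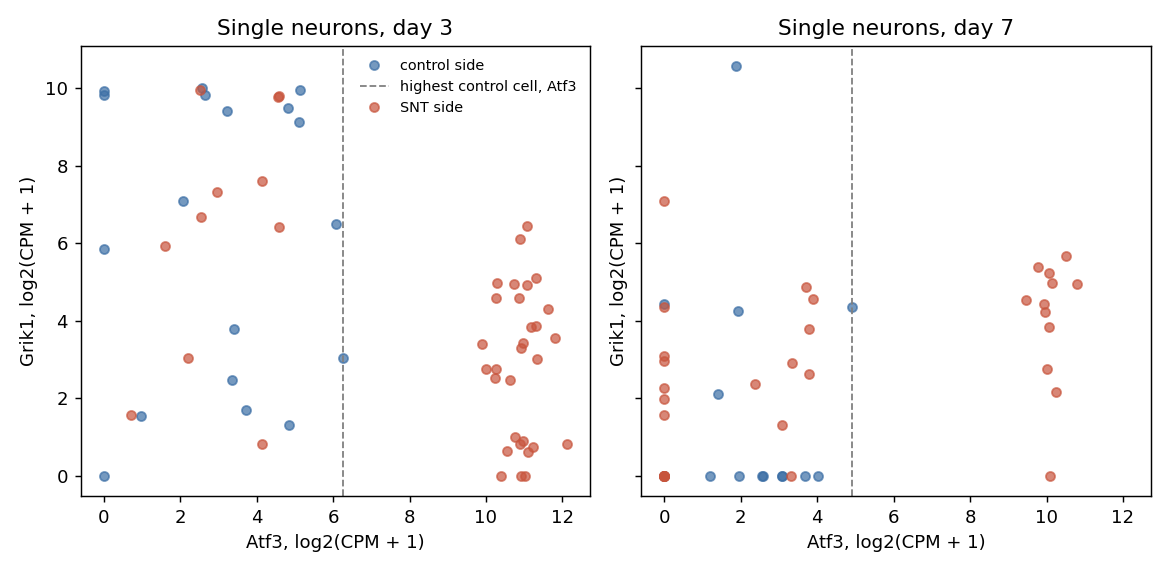
Grik1 against Atf3 in every kept neuron, both as log2(CPM + 1), with the highest Atf3 level of a control cell as a dashed line. At day 3 the SNT cells right of the line stay at or below 86.4 CPM of Grik1, and the cells with Grik1 above 100 CPM lie left of it. At day 7 the 12 SNT cells right of the line reach at most 50.1 CPM.

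Grin1 and Gria2 were carried by every control cell of day 3. Grin1 was at 41.2 to 206 CPM in control cells with a median of 76.1 CPM, and at 8.40 to 135 CPM in SNT cells with a median of 41.5 CPM. Of the 41 SNT cells, 20 were below every control cell and 0 above. The means were 85.5 ± 44.4 and 48.3 ± 27.04 CPM, a log2 ratio of -0.81. In the 30 cells with high Atf3, Grin1 reached at most 82.2 CPM, and in the other 11 it was at 47.9 to 135 CPM. Calca was above 1000 CPM in 12 SNT cells, of which 2 had high Atf3. The part of neuron class in this contrast, and in that of Gria2 below, was not tested.

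Gria2 ranged from 2.39 to 73.9 CPM in day 3 control cells, with a median of 33.3 CPM. In SNT cells it ranged from 0 to 157 CPM with a median of 11.1 CPM, and 9 of 41 cells were below every control cell while 1 was above. The means of 32.7 ± 19.99 and 18.5 ± 26.5 CPM gave a log2 ratio of -0.79, and the medians gave -1.51. In the 30 cells with high Atf3 the highest Gria2 level was 49.7 CPM, and 12 of these 30 but 10 of the other 11 were above 10 CPM. Unlike Grik1, Gria2 followed none of the nociceptor markers closely in the control cells, with rho of 0.20 to P2rx3, 0.20 to Mrgprd and -0.07 to Scn11a.

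Gria4 averaged 112 ± 96.0 CPM in control and 53.7 ± 39.4 CPM in SNT cells of day 3, a log2 ratio of -1.04 that was -0.45 with medians. Its highest SNT cell had 171 CPM, below 7 control cells. Grm7 was broadly carried, at 1.46 to 175 CPM in control cells and 0 to 159 CPM in SNT cells, with medians of 107 and 79.2 CPM. Gria3 was listed at 0 in 8 of 18 control and 12 of 41 SNT cells. Grik2 went the other way at 8.84 ± 6.95 CPM in control and 13.7 ± 14.5 CPM in SNT cells, with 8 SNT cells above every control cell and a ratio of 0.58. Grik5 averaged 7.206 ± 6.90 and 3.85 ± 4.79 CPM, and Gria1 was listed at 0 in 11 of 18 control and 21 of 41 SNT cells. Grin2b reached at most 3.71 CPM and was above 1 CPM in 0 of 18 control cells, which allows a share of up to 16.7%, and in 8 of 41 SNT cells. A count of 0 in 1 day 3 cell allows 1.62 to 10.8 CPM, depending on its depth.

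**Figure D5:**
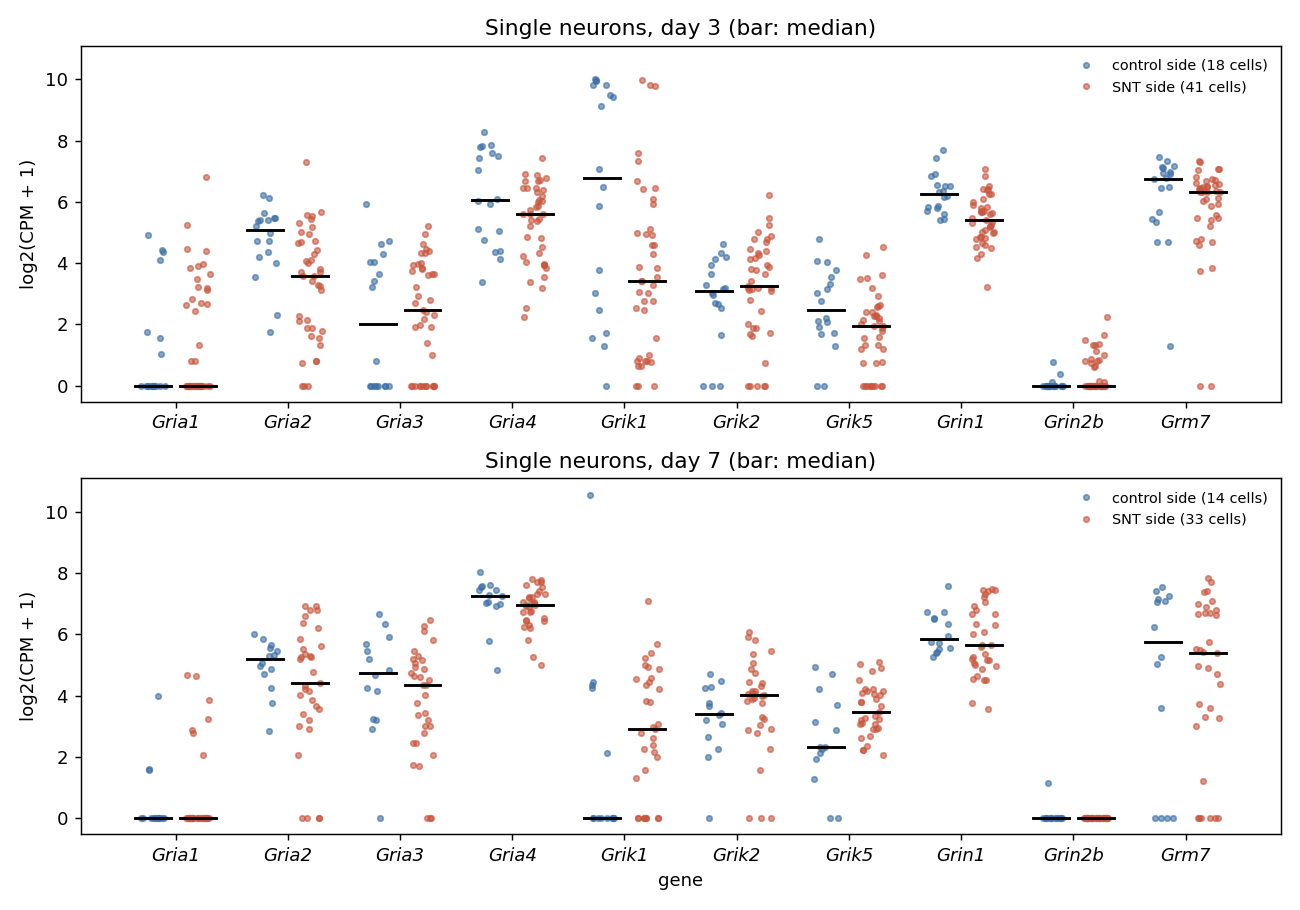
Level of each member in every kept single neuron as log2(CPM + 1), for day 3 above and day 7 below. Points are cells and bars are medians. At day 3 the Grik1, Gria2 and Grin1 medians are lower on the SNT side, while at day 7 the Grik1 median is 0 on the control side and 1 control cell lies at 1515 CPM.

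At day 7, 1 of 9 members was lower beyond 2-fold by the means, beside 3.63% of all 13264 genes, and 0 were higher, beside 5.99%. The median ratio was -0.02 over the members and -0.04 over all genes. The 1 gene was Grik1, at a log2 ratio of -2.73, and the value rested on 1 male control cell at 1515 CPM, which held 96.1% of the control sum. It was also the only control cell with Mrgprd above 1000 CPM. The next highest control cell was at 20.7 CPM and 9 of 14 were at 0, whereas the SNT cells ran from 0 to 136 CPM with a median of 6.57 CPM. Without the highest cell of each side the ratio was 1.22. In female cells it was 2.48 and in male cells -4.50. Nefh exceeded 1000 CPM in 13 of 14 control and 31 of 33 SNT cells at day 7.

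Mean levels of Grin1 and Gria2 were close at day 7, but the cells were spread more widely on the SNT side. Grin1 averaged 74.4 ± 41.8 CPM in control and 73.2 ± 54.7 CPM in SNT cells, and 13 of 33 SNT cells were below the lowest control cell at 37.2 CPM. Gria2 averaged 34.9 ± 16.4 and 37.5 ± 37.96 CPM, with 5 SNT cells below and 7 above every control cell. Atf3 exceeded the highest control cell (29 CPM) in 12 of the 33 SNT cells. In these 12, Grin1 reached at most 49.5 CPM and Gria2 at most 18.98 CPM. In the other 21, Grin1 was at 12.5 to 176 CPM and Gria2 at 6.49 to 122 CPM. All 10 SNT cells with Calca above 1000 CPM were among these 21. Nefh above 1000 CPM was found in 31 of the 33 SNT cells, 11 of them among the 12. The part of neuron class in this contrast was not tested. The log2 ratio of Gria2 was 0.50 in female and -0.20 in male cells, and that of Grin1 was 0.06 and -0.10.

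Among the other day 7 members, Grik2 was at 11.01 ± 7.39 CPM in control and 18.9 ± 16.9 CPM in SNT cells, with 8 SNT cells above every control cell and log2 ratios of 0.53 in female and 0.91 in male cells. Grik5 averaged 8.39 ± 9.31 and 12.8 ± 8.25 CPM, and its ratio was -0.14 in female and 1.68 in male cells. Grm7 averaged 76.7 ± 72.6 and 61.9 ± 66.1 CPM, and its ratio was -1.02 in female cells, beyond 2-fold, and 0.03 in male cells. Gria4 averaged 149 ± 58.9 and 127 ± 50.8 CPM, with ratios of -0.31 in female and -0.15 in male cells. Gria3 averaged 34.2 ± 29.7 and 22.8 ± 22.5 CPM, with ratios of -0.29 and -0.84. Gria1 was listed at 0 in 11 of 14 control and 26 of 33 SNT cells. Grin2b had a count in 1 control cell and in 0 of 33 SNT cells.

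The genes most like the 2 called members were ranked by Spearman's rho over the 59 day 3 cells among 11747 genes. For Grik1 they were Pstpip2 (rho 0.82), Ptgdr (0.82) and Scg3 (0.81), with rho of 0.85, 0.91 and 0.91 within control cells alone. For Gria2 they were Kcna2 (0.71), Nap1l5 (0.69) and Yipf2 (0.67), with rho of 0.08, 0.24 and 0.67 within the 18 control cells and 0.73, 0.72 and 0.61 within the 41 SNT cells. Kcna2 encodes an axonal voltage-gated potassium channel.

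Further genes of the glutamate system were read in the same pooled test. The counts below stand beside 7.1% of all genes called lower and 8.85% called higher, and with so few calls a list they are not read as differing from it. Of 10 other receptor subunits tested, 1 was called, and it was lower. This was Grm8, a presynaptic metabotropic receptor of the same group as Grm7, at 28.9, 19.1 and 5.32 CPM in control and 4.18, 4.35 and 1.996 CPM in SNT libraries, with a log2 change of -2.23 (SE 0.60, edgeR adjusted p = 0.0044). The other 9 were not called. Among them, Grik4 passed the adjusted p limit but not the size limit (log2 change -0.75, SE 0.27, edgeR adjusted p = 0.038). Its SNT libraries lay below its control libraries.

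Of 15 auxiliary subunits of AMPA and kainate receptors tested, 3 were called higher and 1 lower by edgeR, beside the same 8.85% and 7.1% of all genes. DESeq2 called 2 of the 3 higher, since Shisa9 had an adjusted p of 0.090 there. Syndig1, an AMPA receptor-associated membrane protein gene, rose from 6.43 ± 4.94 to 39.3 ± 14.6 CPM (log2 change 2.82, edgeR adjusted p = 4.8e-06). Cacng5, a TARP family member, rose from 25.5 ± 4.50 to 56.2 ± 8.13 CPM (log2 change 1.29, edgeR adjusted p = 0.00045). Shisa9 had 0 reads in all 3 control libraries and 18 reads in the SNT libraries, a level at least 2.65-fold higher against a floor of 3 reads over the control group. Cacng2, which encodes stargazin, the founding TARP that carries AMPA receptors to the surface, fell from 15.9 ± 4.33 to 2.83 ± 0.58 CPM (log2 change -2.27, edgeR adjusted p = 0.0044). The median over the 15 was 0.35.

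Of 13 scaffold genes, 1 was called, and it was higher, beside 8.85% of all genes called higher. Dlg2, which encodes the postsynaptic density protein PSD-93, rose from 42.9 ± 7.93 to 138.9 ± 15.5 CPM (log2 change 1.84, edgeR adjusted p = 7.8e-09). Of 9 genes of glutamate supply and uptake, the vesicular transporter gene Slc17a7 rose from 35.2 ± 4.71 to 84.9 ± 8.79 CPM (log2 change 1.43, edgeR adjusted p = 1.2e-05). Slc17a8, also a vesicular transporter and a C-LTMR marker above, was called lower on 15.4 control and 2.06 SNT reads, a ratio of 16.9 (95% counting interval 3.95 to 153). Slc17a6, the main vesicular transporter of DRG neurons, stood at 421 ± 55.2 and 371 ± 59.7 CPM and was not called. Of the 3 editing enzymes, 0 were called by edgeR and DESeq2 and 1 higher by limma, with 1 at an unadjusted p below 0.05 in each tool. That gene was Adarb1, the enzyme known to edit the GluA2 channel site, at 31.5 ± 16.4 CPM in control and 54.3 ± 10.6 CPM in SNT libraries (log2 change 0.97, edgeR adjusted p = 0.015), with overlapping libraries.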

How the data were processed

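Smart-seq2 libraries without molecular identifiers were made from single or pooled neurons, and sequenced as 50 bp single-end reads at day 3 and 75 bp paired-end reads at day 7. The submitters' processing notes name CASAVA 1.8.2, Bowtie2, RSEM and build mm9. The authors named the deposited tables TPM, but the deposited values are expected counts, as RSEM estimates them: totals differ between libraries (223967 to 2003817) and 60.7 to 93.6% of values above 0 are whole. They were rounded for the tests.

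Pooled libraries (totals 563462 to 839135 control, 1148849 to 2003817 SNT) were tested with edgeR 4.0.16 (glmQLFit and glmQLFTest, TMM factors, a mean CPM of 1 or more for a gene to be tested, prior count 0.125). DESeq2 1.42.0 and limma 3.58.1 were alternatives. The procedure was tested on simulated data. Without TMM factors the median log2 change of all genes moved from 0.02 to -0.14 and the calls from 1196 higher and 961 lower to 980 higher and 1264 lower. Cells were described without a test; 11 day 3 cells that the authors had removed as outliers (7 SNT, 4 control) were left out. PCR reads are not independent molecules, so intervals and floors cover counting error only. CPM per kb used the mean length of GENCODE transcripts with a RefSeq match, in GRCm38. Promoters are from RefSeq.

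All 10 members are named, and of further lists the called, non-overlapping genes, up to 4 a list. Grik3, Grik4, Adarb1, Slc17a6 and the marker genes were named besides. The members and lists were chosen with earlier results of these data known.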

Additional observations from a re-analysis of the deposited data

Results flagged for a closer look

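Grik2 was high in the day 3 cells that the authors removed as outliers. Its mean was 66.9 CPM in the 7 removed SNT cells and 47.6 CPM in the 4 removed control cells, both above the highest kept control cell at 23.4 CPM. It exceeded that level in 6 of the 7 and 3 of the 4 cells. Gria3 averaged 59.98 CPM in the removed control cells against 59.96 CPM in the highest kept control cell. Grin2b averaged 1.69 CPM in the removed SNT cells against at most 0.70 CPM in kept control cells. Other members were low in the removed control and SNT cells. Grik1 averaged 17.3 and 0.92 CPM there against 394 CPM in kept control cells, and Grin1 3.83 and 20.1 against 85.5 CPM. Grm7 averaged 10.6 and 11.5 against 94.3 CPM, and Gria2 0 and 7.48 against 32.7 CPM.

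At day 7 the log2 ratio of Grik1 was 2.48 in female and -4.50 in male cells. The difference between the sexes was not tested, and the male value rests on the 1 control cell at 1515 CPM.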

How the results depend on the processing

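In the pooled libraries Grik1 and Gria2 were called lower under all 14 alternatives, with log2 changes from -4.70 to -4.43 and from -2.77 to -2.14. The count of members called lower was 2 to 3, and members called higher stayed at 0. The number of all genes called ranged from 1649 to 2244 and, with 1 library left out, from 1879 to 2150. With the library number as a block, 2009 genes were called instead of 2157, and the correlations of same-numbered libraries were 0.13, 0.01 and -0.02, so that the libraries share only a number. Gria3 was called lower under the block (-1.26, adjusted p = 0.041), with library size alone (-1.34, adjusted p = 0.037), without the low-count filter (-1.17, adjusted p = 0.049), and without control library 2 or SNT library 1 (-1.62 and -1.76). Over its alternatives the adjusted p of Gria3 ran from 0.0068 to 0.28. With 1 library left out, Grik2 ran from -1.12 to -0.25, and the adjusted p of Grin1 rose above its limit in 3 of 6 cases. Grm7 changed sign with library size alone (-0.091) and, with 1 library left out, ranged from -0.12 to 0.22, negative without control library 1 and without SNT library 1 (-0.03). Grik5 changed sign with limma (0.47), under the block (0.45), without SNT library 3 (0.12) and without control library 1 (4.77, then at 0 in both control libraries, so that the fitted value is no bound), and ranged from -0.84 to 4.77 with 1 library left out. Among the day 3 cells, 1 member in place of 2 was lower beyond 2-fold with the excluded cells, with a pseudocount of 10, with totals thinned to 200000 counts and without the highest cell of each side, because Gria4 then stayed within 2-fold, and 650 in place of 1791 genes were beyond 2-fold with a pseudocount of 10. At day 7 the ratio of Grik1 changed sign with medians (2.92), without the highest cell of each side (1.22) and in female cells (2.48). There, 0 members were lower and 2 higher beyond 2-fold with medians and without the highest cells, while 1 was higher in female and 2 in male cells, and 1 was lower in each sex, Grm7 in female (-1.02) and Grik1 in male cells. All genes beyond 2-fold numbered 2040 with medians, 371 with a pseudocount of 10 and 2145 in female cells, in place of 1276. No cells were removed at day 7, so that alternative was not run there. The cause of these changes was not tested. Gria1, Grik5 and Grin2b are limited by depth.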
